A study of Mus musculus with 9 samples.

Results

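The genes described here are 8 regulators of muscle protein breakdown, the ubiquitin ligase genes *Fbxo32*, *Trim63*, *Trim54*, *Trim55* and *Fbxo30* and the forkhead transcription factor genes *Foxo1*, *Foxo3* and *Foxo4*. They were chosen by symbol, with no measured value in the rule, though earlier results of these data were known. All 8 had a probe set of their own among the 24704 named and tested probe sets (25428 on the array). TGFβ1 raised *Fbxo32* and *Foxo1* in differentiating myocytes and lowered *Trim63*, *Trim54* and *Trim55*, whereas *Fbxo30*, *Foxo3* and *Foxo4* did not pass the test. With the pathway inhibitor ITD-1, none of the 8 was called against control myocytes.

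Primary myoblasts were grown from satellite cells of skeletal muscle of C57BL/6 mice (the N substrain in the study's methods), plated at 30000 cells per cm2 and kept for 24 h in a differentiation medium with 2% horse serum. In 1 group the cells then received recombinant TGFβ1 protein at 20 ng/ml for another 24 h. A second group received ITD-1, a compound that removes the TGFβ receptor TGFBR2 from the cell surface, for the same time, at a dose written as 5 mM in the sample labels and 5 µM in the study's methods. The third group was the untreated control, and each group was measured on 3 Affymetrix MouseGene 2.0 ST arrays, 1 per sample.

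Ubiquitin ligases choose the proteins that are tagged with ubiquitin and sent to the 26S proteasome. *Fbxo32* encodes atrogin-1 (MAFbx), the substrate-binding F-box subunit of an SCF complex, and *Trim63*, *Trim55* and *Trim54* encode MuRF1, MuRF2 and MuRF3, RING-finger ligases that sit on the sarcomere and on microtubules of striated muscle. In wasting muscle *Fbxo32* and *Trim63* are the classic "atrogenes" and are known to be switched on together by FOXO transcription factors, which AKT and SGK1 kinases hold out of the nucleus by phosphorylation. Signaling by TGFβ family ligands is known as one of the inputs to this programme.

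The proximal promoters of *Trim63* and *Trim54* are shown because both genes fell with TGFβ1 and both windows hold a myogenic E-box, the site type bound by MYOD1 and MYOG. *Trim63* also holds the core FOXO motif. The windows are the 250 bases before the gene start in RefSeq on GRCm38.p6, chr4:134314870-134315119 for *Trim63* and chr5:31116362-31116611 for *Trim54*, both on the plus strand, written 5′ to 3′. Capitals mark every match, on either strand, to the FOXO motif GTAAACA and to the palindromic E-box, whose letters are CAGCTG.
Trim63: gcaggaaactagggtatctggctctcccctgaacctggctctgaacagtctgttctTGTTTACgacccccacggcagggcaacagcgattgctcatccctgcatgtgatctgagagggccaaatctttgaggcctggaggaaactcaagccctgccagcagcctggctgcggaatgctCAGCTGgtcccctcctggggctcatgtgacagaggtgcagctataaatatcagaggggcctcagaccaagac
Trim54: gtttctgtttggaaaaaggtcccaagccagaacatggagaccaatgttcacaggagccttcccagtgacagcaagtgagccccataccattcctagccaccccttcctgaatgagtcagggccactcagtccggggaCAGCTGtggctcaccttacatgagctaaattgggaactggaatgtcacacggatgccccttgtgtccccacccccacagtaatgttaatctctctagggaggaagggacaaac
In *Trim63* the FOXO motif, on the minus strand and so printed as TGTTTAC, lay 194 to 188 bases before the start and the E-box 72 to 67 bases before it. The E-box of *Trim54* lay 113 to 108 bases before its start. Promoter windows were on hand for 5 of the 8 genes, and the windows of *Foxo1*, *Foxo3* and *Fbxo30* held neither motif. The *Fbxo30* window begins inside the gene as RefSeq annotates it, so it does not lie before that gene's first base. Of 32851 mouse promoter windows of the same length, 3.17% held the FOXO motif and 13.0% the E-box. The SMAD motif was searched only as the exact letters CAGACA, on both strands, and not in shorter or variant forms. In that form it was in 17.1% of all windows and in none of the 5. These matches describe letters only, since no binding was measured.

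Levels are the deposited RMA values on the log2 scale, so that a difference of 1 is a 2-fold change, and levels of different genes were not compared because each probe set has its own response. Calls rest on limma's moderated test over all 9 arrays, with an adjusted p under 0.05 (Benjamini-Hochberg, 24704 probe sets). The 2 treatments were set against the same 3 control arrays, so their results are not independent of each other. With TGFβ1, 5 of the 8 genes were called against control, 2 higher and 3 lower, where 6.43% of all tested probe sets were called (3.65% higher and 2.78% lower). The arrays of the 2 groups did not overlap for the same 5 genes, where 20.5% of all probe sets had no overlap. The methods' criteria, an unadjusted p under 0.05 with at least a 1.5-fold change, selected 3 of the 8, *Trim63*, *Trim54* and *Foxo1*, and 3.34% of all probe sets. For 3 arrays against 3, an exact permutation test of a single gene cannot give a p below 0.1, and each of these 5 genes reached it.

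**Figure D1:**
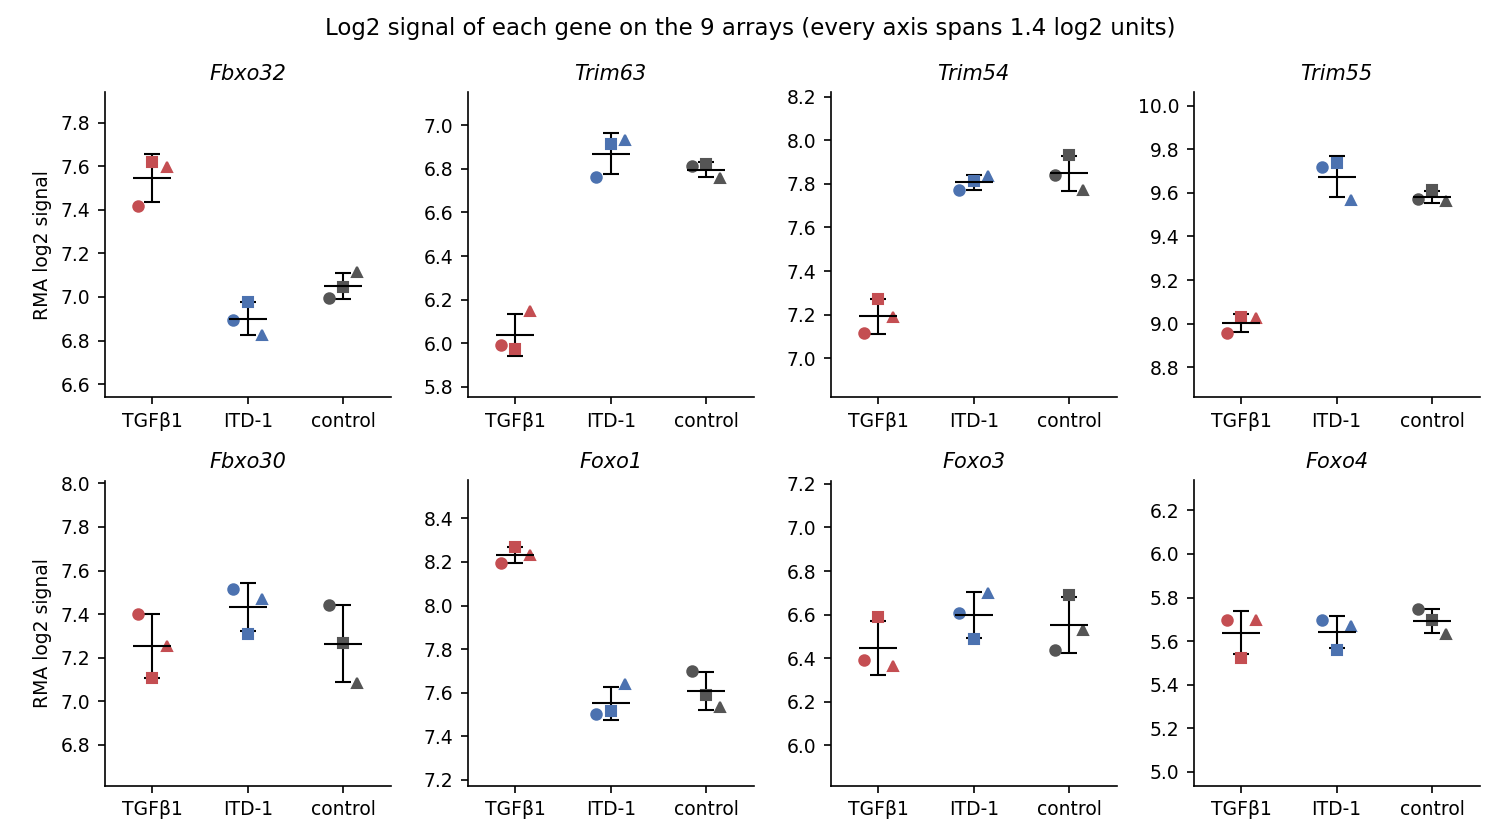
RMA log2 signal (vertical axes, each spanning the same range) of the 8 genes on every array of TGFβ1, ITD-1 and control myocytes. Circles, squares and triangles are replicates 1, 2 and 3, long bars are means and error bars are SD (n = 3); *Fbxo32* and *Foxo1* lie higher and *Trim63*, *Trim54* and *Trim55* lower on all 3 TGFβ1 arrays than on any other array.

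The SCF ligase gene *Fbxo32* (Entrez gene 67731, chromosome 15) had log2 signals of 7.42, 7.62 and 7.60 on the TGFβ1 arrays, 6.90, 6.98 and 6.83 on the ITD-1 arrays and 6.99, 7.05 and 7.11 on the control arrays. All TGFβ1 arrays were above all others, and all ITD-1 arrays were just below the control arrays. The means were 7.55 ± 0.11 with TGFβ1, 6.90 ± 0.08 with ITD-1 and 7.05 ± 0.06 in control (SD, n = 3 each). Atrogin-1 mRNA was therefore 1.41-fold higher with TGFβ1 than in control, a log2 difference of 0.49 (SE 0.08, 95% interval 0.32 to 0.67, limma adjusted p = 0.00388). Against control, ITD-1 gave -0.15 (95% interval -0.32 to 0.02, adjusted p = 0.700), so the lowest position of ITD-1 in the order TGFβ1, control, ITD-1 was not called.

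The 3 MuRF genes moved opposite to atrogin-1. *Trim63* (Entrez gene 433766, chromosome 4), whose product MuRF1 tags myosin-associated and other thick-filament proteins, had log2 signals of 5.99, 5.97 and 6.15 with TGFβ1, 6.76, 6.91 and 6.93 with ITD-1 and 6.81, 6.82 and 6.76 in control. Every TGFβ1 array was below every other array, while ITD-1 and control overlapped. The means were 6.04 ± 0.10, 6.87 ± 0.09 and 6.80 ± 0.04 for TGFβ1, ITD-1 and control (SD, n = 3 each). *Trim63* was 1.69-fold lower with TGFβ1 than in control (log2 difference -0.76, SE 0.07, 95% interval -0.93 to -0.59, limma adjusted p = 0.000256), the largest difference of the 8 genes. The order was ITD-1, control, TGFβ1, and ITD-1 did not differ from control beyond the spread (0.07, 95% interval -0.09 to 0.24, adjusted p = 0.878).

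*Trim54* (Entrez gene 58522, chromosome 5) encodes MuRF3, which binds and stabilizes microtubules in developing muscle. Its log2 signals were 7.11, 7.27 and 7.19 with TGFβ1, 7.77, 7.81 and 7.84 with ITD-1 and 7.84, 7.93 and 7.77 in control. The TGFβ1 arrays again formed a separate low group. Means were 7.19 ± 0.08 with TGFβ1, 7.81 ± 0.03 with ITD-1 and 7.85 ± 0.08 in control (SD, n = 3 each). TGFβ1 lowered *Trim54* 1.58-fold against control (log2 difference -0.66, SE 0.07, 95% interval -0.81 to -0.50, limma adjusted p = 0.000384). The ITD-1 and control levels, neighbors in the order, differed by -0.04 (95% interval -0.20 to 0.11, adjusted p = 0.931).

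*Trim55* (Entrez gene 381485, chromosome 3) encodes MuRF2, which links titin, myosin and microtubules during sarcomere assembly. It gave log2 signals of 8.96, 9.03 and 9.02 with TGFβ1, 9.72, 9.74 and 9.57 with ITD-1 and 9.57, 9.61 and 9.56 in control. Its TGFβ1 arrays lay tightly together and below all others. Means were 9.00 ± 0.04 with TGFβ1, 9.67 ± 0.09 with ITD-1 and 9.58 ± 0.03 in control (SD, n = 3 each). *Trim55* was 1.49-fold lower with TGFβ1 than in control (log2 difference -0.58, SE 0.07, 95% interval -0.73 to -0.43, limma adjusted p = 0.000666). ITD-1 minus control was 0.09 (95% interval -0.06 to 0.24, adjusted p = 0.816), so these neighbors in the order were not told apart.

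*Fbxo30* (Entrez gene 71865, chromosome 10) encodes MUSA1, an F-box protein known in mouse as a denervation-induced ligase held down by BMP signaling. Its log2 signals were 7.40, 7.11 and 7.26 with TGFβ1, 7.52, 7.31 and 7.47 with ITD-1 and 7.44, 7.27 and 7.09 in control. The 3 groups overlapped, and the control SD of 0.18 was the widest of any gene and group here. TGFβ1 minus control was -0.01 (95% interval -0.26 to 0.24, adjusted p = 0.983) and ITD-1 minus control was 0.17 (95% interval -0.08 to 0.41, adjusted p = 0.792). The order was ITD-1 (7.43 ± 0.11), control (7.26 ± 0.18) and TGFβ1 (7.25 ± 0.15), with no neighbors that differed beyond their spread (SD, n = 3 each).

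Among the FOXO factors, *Foxo1* (Entrez gene 56458, chromosome 3) was the member whose level changed. *Foxo1* is known to drive atrophy genes and to slow myogenic differentiation. Its log2 signals were 8.19, 8.27 and 8.23 with TGFβ1, 7.50, 7.52 and 7.64 with ITD-1 and 7.70, 7.59 and 7.53 in control. All TGFβ1 arrays stood above the other 6, which overlapped. The means were 8.23 ± 0.04, 7.55 ± 0.08 and 7.61 ± 0.09 for TGFβ1, ITD-1 and control (SD, n = 3 each). TGFβ1 raised *Foxo1* 1.54-fold over control (log2 difference 0.62, SE 0.07, 95% interval 0.47 to 0.78, limma adjusted p = 0.000553). ITD-1 and control, next to each other in the order, differed by -0.06 (95% interval -0.21 to 0.10, adjusted p = 0.906).

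*Foxo3* (Entrez gene 56484, chromosome 10), a FOXO factor known for inducing autophagy and ligase genes in atrophy, had log2 signals of 6.39, 6.59 and 6.36 with TGFβ1, 6.61, 6.49 and 6.70 with ITD-1 and 6.44, 6.69 and 6.53 in control. The groups overlapped throughout. TGFβ1 minus control was -0.10 (95% interval -0.32 to 0.11, adjusted p = 0.718) and ITD-1 minus control was 0.05 (95% interval -0.17 to 0.26, adjusted p = 0.941). *Foxo4* (Entrez gene 54601, chromosome X), the third family member, had log2 signals of 5.70, 5.52 and 5.70 with TGFβ1, 5.70, 5.56 and 5.67 with ITD-1 and 5.75, 5.70 and 5.63 in control. Its groups overlapped too, and 4 of the 9 arrays carried the identical value. TGFβ1 minus control was -0.05 (95% interval -0.22 to 0.11, adjusted p = 0.833) and ITD-1 minus control was -0.05 (95% interval -0.22 to 0.12, adjusted p = 0.917). The means of *Foxo3* were 6.45 ± 0.12, 6.60 ± 0.11 and 6.55 ± 0.13 for TGFβ1, ITD-1 and control, and those of *Foxo4* were 5.64 ± 0.10, 5.64 ± 0.07 and 5.69 ± 0.06 (SD, n = 3 each), with no neighbors in either order told apart.

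**Figure D2:**
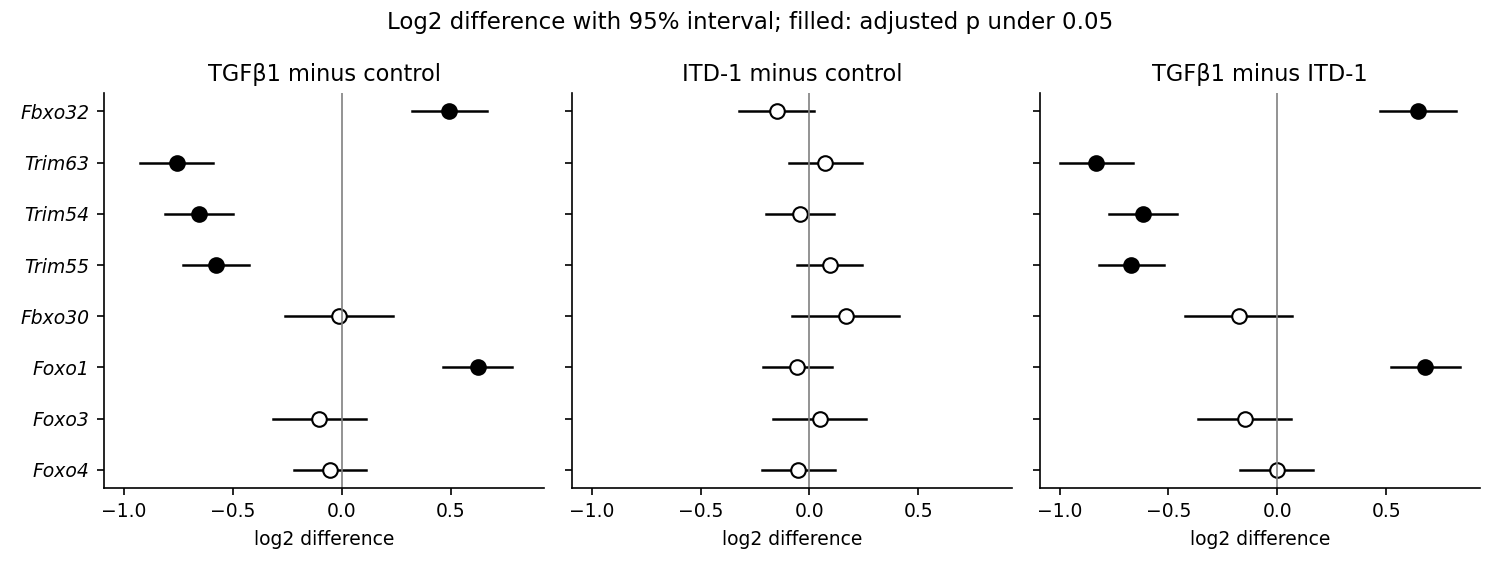
Log2 difference (horizontal axes) of each gene for TGFβ1 minus control, ITD-1 minus control and TGFβ1 minus ITD-1, with 95% intervals from limma. Filled circles are calls at an adjusted p under 0.05; *Trim63* at -0.76 and *Foxo1* at 0.62 are the lowest and highest against control, and no circle is filled for ITD-1 minus control.

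For ITD-1 against control, limma called 0 of the 8 genes, where 0.636% of all probe sets were called. At an unadjusted p under 0.05 it also gave 0 of 8 (7.88% of all probe sets), and the methods' analysis of variance with a 1.5-fold minimum selected 0 of 8 (0.631% of all probe sets). *Fbxo32* alone had arrays that did not overlap, with ITD-1 below control, where 11.1% of all probe sets had no overlap. The median log2 difference of the 8 genes was 0.00277, beside 0.00601 over all probe sets. The 95% intervals of the 8 differences from control reached from -0.32 to 0.41 on the log2 scale.

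Setting TGFβ1 against ITD-1 directly, 5 of the 8 genes were called, 2 higher and 3 lower, where 10.2% of all probe sets were called (5.92% higher and 4.26% lower). *Fbxo32* was 1.56-fold higher with TGFβ1 than with ITD-1 (log2 difference 0.65, SE 0.08, limma adjusted p = 0.000428). *Foxo1* was 1.60-fold higher (0.68, SE 0.07, adjusted p = 0.000175). The 3 MuRF genes were lower with TGFβ1, by -0.83 for *Trim63* (SE 0.07, adjusted p = 7.30e-05), -0.67 for *Trim55* (SE 0.07, adjusted p = 0.000147) and -0.61 for *Trim54* (SE 0.07, adjusted p = 0.000312). *Fbxo30* at -0.18, *Foxo3* at -0.15 and *Foxo4* at -0.00296 did not pass (adjusted p = 0.423, 0.437 and 0.990). This comparison reuses the TGFβ1 arrays of the comparison with control.

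Because the arrays were made from whole cultures, fewer cells of a type and less RNA per cell cannot be told apart. All 12 myocyte markers were above the median probe set, as were 3 of 3 satellite cell markers, whereas the 19 markers on the array for fibroblasts, endothelium, blood cells, adipocytes and Schwann cells were below it except *Cd68*, and none of the 19 was called with either treatment. The mean log2 level of the myocyte list was 10.70 to 10.79 with TGFβ1, 10.68 to 10.73 with ITD-1 and 10.67 to 10.80 in control. That of the satellite cell list was 7.39 to 7.62, 7.00 to 7.24 and 7.34 to 7.56 for TGFβ1, ITD-1 and control. Within the myocyte list TGFβ1 raised *Ckm* and lowered *Myh3* (-0.31, adjusted p = 0.0224) and *Actn2* (-0.32, adjusted p = 0.0433), and the satellite cell marker *Sdc4* fell with ITD-1 (-0.52, adjusted p = 0.0273). The part of these marker changes in the results for the ligase and FOXO genes was not tested. Within each group the arrays correlated at 0.992 to 0.996 over all probe sets, and none stood apart by this measure. The array medians still differed, from 4.09 on TGFβ1 replicate 2 to 4.19 on TGFβ1 replicate 3.

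The 5 genes that changed followed each other over the 9 arrays, given here as a description in which the 3 TGFβ1 arrays set the pattern. *Trim63* correlated with *Trim54* at 0.97 and with *Trim55* at 0.97 (Pearson r, 9 arrays). *Foxo1* correlated with *Fbxo32* at 0.93 and with *Trim63* at -0.96. Within groups, after the group means were taken off, the *Foxo1* values correlated with *Fbxo32* at -0.32 and with *Trim63* at 0.38, so the shared pattern lay between the groups.

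The genes most like each of the 5, by Pearson r over the same 9 arrays among 10925 named genes at or above the median level, shared its step between TGFβ1 and the rest. For *Fbxo32* they were *Arhgap20* (r = 0.989, 1.36 on the log2 scale for TGFβ1 minus control), *Jak1* (0.988, 0.31) and *Olfml2b* (0.987, 0.64). For *Trim63* they were *Abcc9* (0.989, -1.48), *Fbxl2* (0.987, -0.77) and *Sort1* (0.985, -0.69). *Trim54* was matched by *Plpp3* (0.992, -0.95), *Lpl* (0.988, -1.35) and *Jdp2* (0.988, -0.69). *Trim55* was matched by *Sema3e* (0.996, -1.13), *Dclk1* (0.994, -1.03) and *Notch1* (0.993, -0.75). *Foxo1* was matched by *Adgre5* (0.995, 1.68), *Pde2a* (0.995, 2.08) and *Adgrl1* (0.994, 0.64). Each of these 15 genes was called with TGFβ1 against control (6.43% of all probe sets) and none with ITD-1 against control (0.636%). These calls follow largely from how the genes were picked, by their match to genes already called with TGFβ1.

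Other genes of the pathway were read as 7 lists, also chosen with earlier results of these data known. Their shares of called genes, like that of the ligase and FOXO genes, are descriptions and were not tested as sets. Of the regulators that act on FOXO proteins, 22 of 24 were on the array, and TGFβ1 raised 3 and lowered 3 of them (27.3% of those on the array, beside 6.43% of all probe sets, with a median log2 difference of -0.04, beside -0.01 over all). *Akt2*, the AKT kinase tied to insulin signaling in muscle, had 7.74, 7.74 and 7.67 with TGFβ1 against 8.58, 8.70 and 8.65 in control (log2 difference -0.92, SE 0.07, adjusted p = 4.34e-05). *Sgk1*, a kinase that phosphorylates the same FOXO sites as AKT, moved the opposite way, with 5.91, 5.91 and 5.67 with TGFβ1 against 4.75, 4.78 and 4.78 in control. It was 2.08-fold higher (1.06, SE 0.08, adjusted p = 4.75e-05). *Prkaa2*, the muscle catalytic subunit of AMPK, had 7.89, 7.83 and 7.88 with TGFβ1 against 8.86, 8.81 and 8.61 in control (-0.89, SE 0.09, adjusted p = 0.000230). In all 3 genes the groups were far apart, so mRNAs of kinases that act on FOXO moved in both directions. Kinase activity was not measured by the arrays. In a separate measurement, the paper's western blots of treated myocytes showed no significant change in phosphorylated AKT or mTOR with either treatment. Those blots came from fewer independent experiments than the 3 arrays per group, in myocytes described as differentiated for a single day. The arrays followed 24 h of differentiation and another 24 h of treatment, so the times may differ.

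The other called regulators, named because they were called, were the deacetylase gene *Sirt1* (0.54, adjusted p = 0.00380), the PI3K regulatory subunit gene *Pik3r1* (0.38, adjusted p = 0.0166) and the glucocorticoid receptor gene *Nr3c1* (-0.43, adjusted p = 0.0343). The calls of *Pik3r1* and *Nr3c1* depended on single arrays. Without control replicate 1 or 2 the adjusted p was 0.0620 and 0.0722 for *Pik3r1*, and without TGFβ1 replicate 1 or 2 it was 0.0570 and 0.0636. That of *Nr3c1* was 0.0651 to 0.138 when any 1 control or TGFβ1 array was left out, and 0.0716 with the replicate number as a block. The block added *Ppargc1a*, encoding the coactivator PGC-1α (-0.43, 0.0338, against 0.0773 without it).

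**Figure D3:**
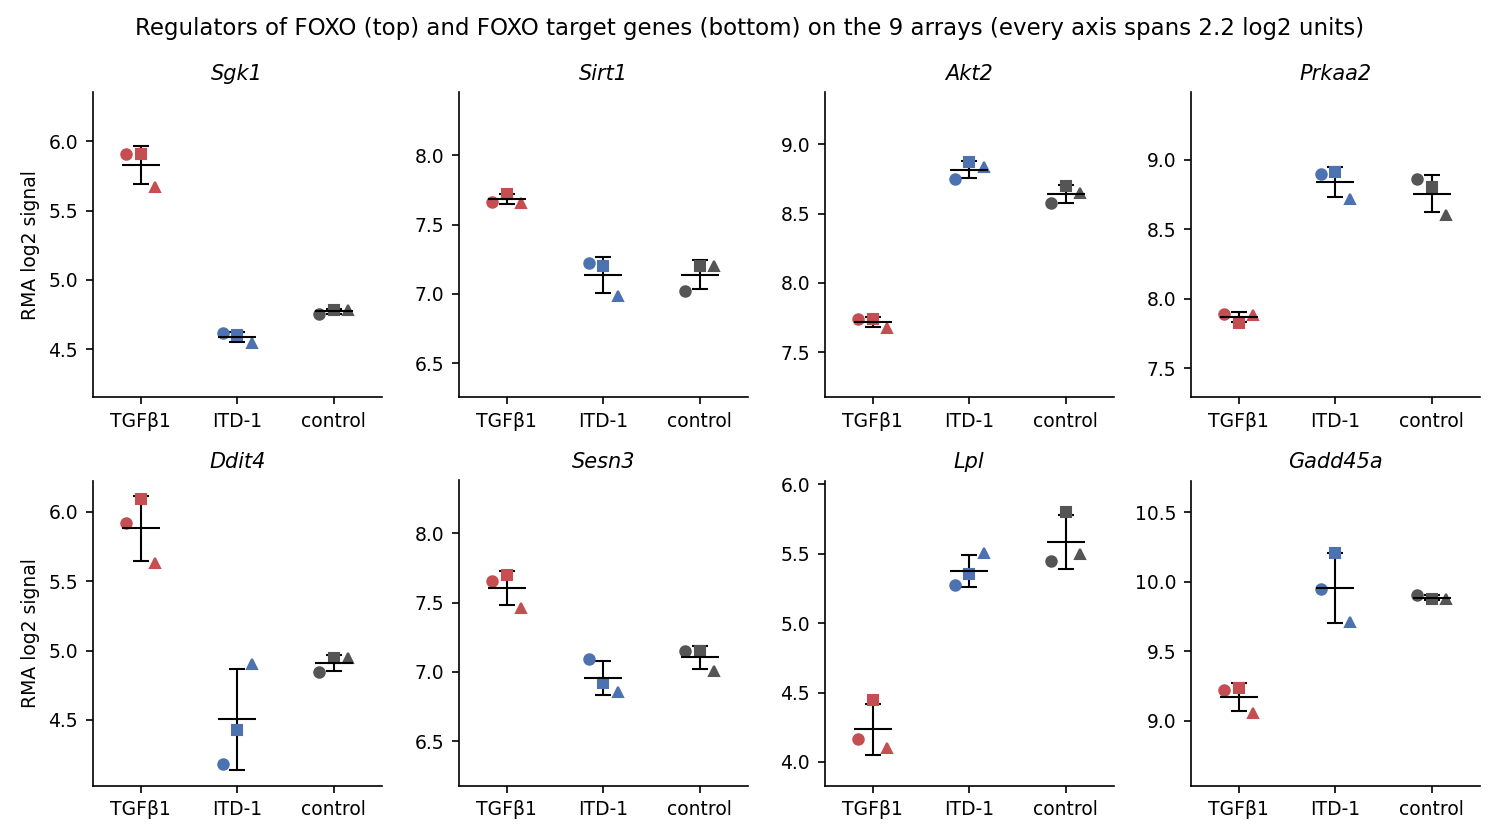
RMA log2 signal (vertical axes, each spanning the same range) of 4 regulators of FOXO proteins (top) and 4 FOXO target genes (bottom) on every array of TGFβ1, ITD-1 and control myocytes. Circles, squares and triangles are replicates 1, 2 and 3, with means and SD (n = 3); *Sgk1*, *Sirt1*, *Ddit4* and *Sesn3* are higher and *Akt2*, *Prkaa2*, *Lpl* and *Gadd45a* lower on every TGFβ1 array than on every control array.

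Known FOXO target genes outside autophagy did not share 1 direction either. All 21 were on the array, and TGFβ1 raised 3 and lowered 2 (23.8%, beside 6.43% of all probe sets, median log2 difference 0.13). *Ddit4*, which encodes the mTORC1 inhibitor REDD1, had 5.92, 6.10 and 5.63 with TGFβ1 against 4.84, 4.95 and 4.94 in control. It was 1.96-fold higher (0.97, SE 0.17, adjusted p = 0.00856). *Lpl*, encoding lipoprotein lipase, had 4.17, 4.44 and 4.10 with TGFβ1 against 5.45, 5.80 and 5.50 in control (-1.35, SE 0.12, adjusted p = 0.000164). *Gadd45a*, a stress gene induced in denervated muscle, had 9.22, 9.24 and 9.05 with TGFβ1 against 9.90, 9.87 and 9.88 in control (-0.72, SE 0.12, adjusted p = 0.00469). The groups did not overlap for these 3 genes. The other 2 called targets were the sestrin gene *Sesn3* (0.50, adjusted p = 0.00901) and *Angptl4*, whose product inhibits lipoprotein lipase (0.75, adjusted p = 0.0397), and the call of *Angptl4* was lost without any 1 of control replicates 1 and 2 (0.117 and 0.139), TGFβ1 replicates 1 and 2 (0.132 and 0.151) and ITD-1 replicates 1 and 2 (0.0628 and 0.0527), and with the replicate number as a block (0.0689). The median of -0.08 for the 8 ligase and FOXO genes likewise described neither the genes that rose nor those that fell.

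Autophagy is the second degradation route under FOXO control. Of 24 of 25 genes on the array, 2 were higher and 1 lower with TGFβ1 (12.5%, beside 6.43% of all probe sets, median 0.10). *Wipi1*, which marks forming autophagosomes, had 8.16, 8.16 and 7.99 with TGFβ1 against 7.65, 7.73 and 7.54 in control (0.46, SE 0.08, adjusted p = 0.00896). *Sqstm1*, encoding the cargo receptor p62, had 10.62, 10.51 and 10.48 with TGFβ1 against 10.13 on each control array (0.40, SE 0.08, adjusted p = 0.0129). The call of *Sqstm1* was lost without control replicate 2 (0.0516) or TGFβ1 replicate 1 (0.0616). *Bnip3*, a mitophagy receptor gene, gave -0.69 (SE 0.17, adjusted p = 0.0384) and lost its call without control replicate 1 (0.145) or 2 (0.133), TGFβ1 replicate 1 (0.0880) or 3 (0.1), or ITD-1 replicate 2 (0.0603).

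The proteasome degrades what the ligases tag. Of 35 of 41 proteasome and ubiquitin genes on the array, 0 were higher and 2 lower with TGFβ1 (5.71%, near the 6.43% of all probe sets, median -0.12). The 2 were the base ATPase genes *Psmc3* (-0.39, SE 0.08, adjusted p = 0.0128) and *Psmc1* (-0.26, SE 0.06, adjusted p = 0.0425), and *Psmc5* was next with -0.36 (adjusted p = 0.0561). *Psmc1* lost its call when any 1 array was left out other than ITD-1 replicate 3 (adjusted p of 0.0527 to 0.139) and with the replicate number as a block (0.0569), while the block added a call for the core subunit gene *Psmb7* (-0.27, 0.0495, against 0.140 without it). *Psmc3* lost it without control replicate 1 (0.0568) or 2 (0.0504) or TGFβ1 replicate 2 (0.0552). For the SCF core and neddylation genes, which build the complex that holds atrogin-1, limma called 0 of the 8 on the array (of 9, median -0.07), with 2 at an unadjusted p under 0.05. The SCF adaptor gene *Skp1* gave -0.28 (adjusted p = 0.0838, and 0.0437 with the replicate number as a block, which made it the 1 gene of the list called), *Cand1* 0.15 (0.280) and *Cops5* -0.21 (0.369). Of 21 of 23 other ubiquitin ligases and deubiquitinases of muscle, limma called 0 (median 0.04), with 2 at an unadjusted p under 0.05. The nearest were *Mdm2* (0.19, adjusted p = 0.252), *Cblb* (0.22, 0.252) and *Nedd4l* (0.18, 0.325).

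Partners and substrates of the MuRF proteins and of atrogin-1 formed the last list. All 16 were on the array, and TGFβ1 raised 1 and lowered 3 (25.0%, beside 6.43% of all probe sets, median -0.05). *Myom1*, which encodes the M-band protein myomesin, had 7.79, 7.84 and 7.78 with TGFβ1 against 8.73, 8.85 and 8.51 in control (-0.89, SE 0.09, adjusted p = 0.000388). *Ckm*, encoding muscle creatine kinase, a known MuRF1 partner, had 8.82, 8.83 and 8.58 with TGFβ1 against 7.94, 7.84 and 7.63 in control, 1.91-fold higher (0.93, SE 0.10, adjusted p = 0.000510). The groups were well separated for both. The myosin light chain gene *Myl1* gave -0.44 (SE 0.07, adjusted p = 0.00342), and the myosin-binding protein gene *Mybpc1*, named because it was called, gave -1.01 (SE 0.16, adjusted p = 0.00460).

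**Figure D4:**
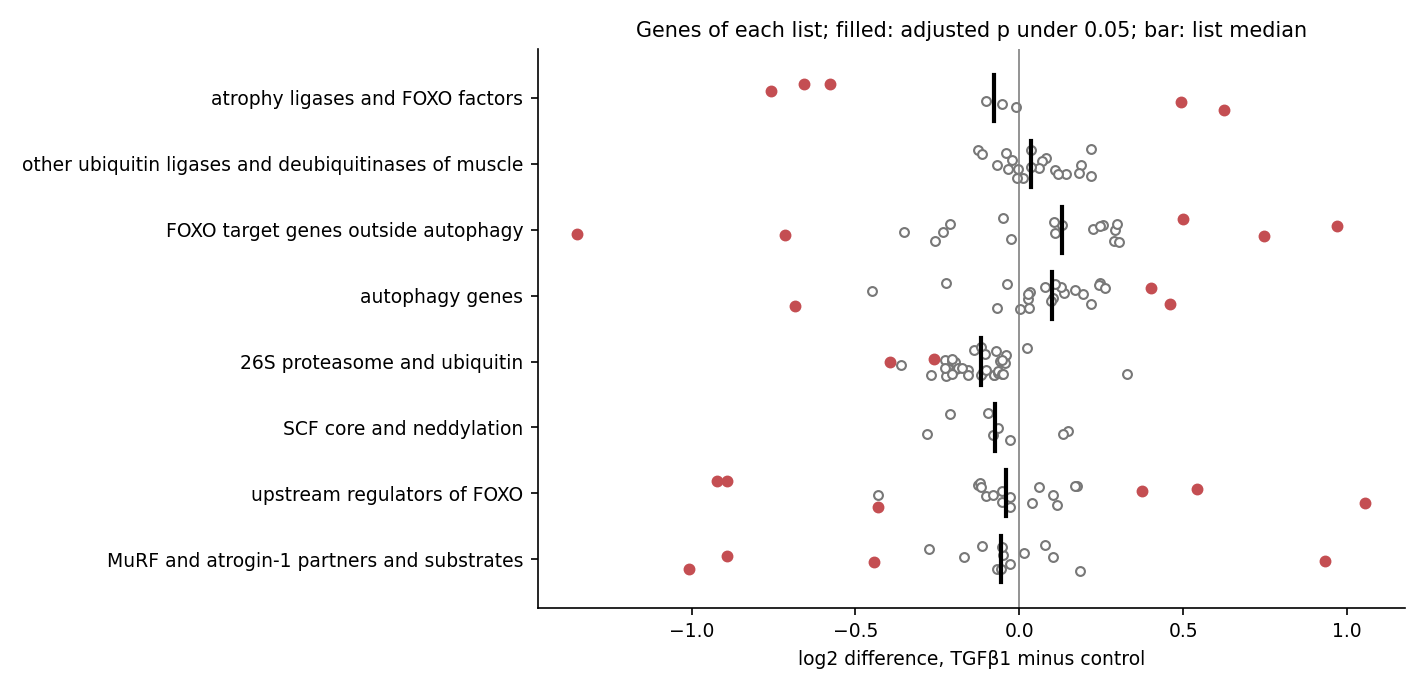
Log2 difference for TGFβ1 minus control (horizontal axis) of the 8 ligase and FOXO genes (top row) and of the genes of the 7 pathway lists on the array. Each circle is a gene, filled circles are calls at an adjusted p under 0.05 and bars are list medians; the 5 filled circles of the top row lie between -0.76 and 0.62, and the SCF list and the list of other ligases hold no filled circle.

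With ITD-1 against control, limma called 0 genes in each of the 7 lists. At an unadjusted p under 0.05 there were 4 regulators, 4 FOXO targets, 4 autophagy genes, 2 proteasome and ubiquitin genes, 2 other ligases, 1 partner or substrate and 0 SCF genes. Over all probe sets 7.88% passed this threshold. Set against ITD-1, TGFβ1 gave the same 6 called regulators, with *Sgk1* 2.36-fold higher (1.24, adjusted p = 6.97e-06) and *Akt2* lower (-1.10, adjusted p = 5.59e-06). Of all probe sets 10.2% were called in this comparison. The list shares were 27.3% of regulators, 42.9% of FOXO targets, 31.2% of partners and substrates, 16.7% of autophagy genes and 14.3% of proteasome genes. Those of the other ligases and of the SCF genes were 4.76% and 0%. Among the partners 1 was higher and 4 lower, and *Neb*, encoding the thin-filament ruler nebulin, joined the genes called against control (-0.42, adjusted p = 0.0103). The autophagy list had 4 higher and 0 lower, *Wipi1* (0.71, adjusted p = 0.000393), *Sqstm1* (0.67, 0.000365), *Tfe3* (0.55, 0.0177) and *Map1lc3b* (0.31, 0.0342). Cyclic loess between arrays, array weights, the replicate block and the filter at the median level each gave 2 lower instead, *Bnip3* and *Atg12*. The proteasome list had 0 higher and 5 lower, *Psmc3*, *Psmc5*, *Psmc1*, *Psma6* and *Psmc2*, at -0.42, -0.45, -0.28, -0.31 and -0.30. The calls of *Tfe3*, *Map1lc3b*, *Psmc1*, *Psma6* and *Psmc2* were each lost on leaving out at least 1 array, and the counts then ran over 2 to 3 higher autophagy genes and 2 to 6 lower proteasome genes. Of the other ligases *Mdm2* was higher (0.39, adjusted p = 0.00852). FOXO targets gave 6 higher and 3 lower, with *Ddit4* 2.60-fold higher (1.38, adjusted p = 0.000620). This count was 3 to 7 higher and 2 to 4 lower over single arrays left out, with the fewest, 3 and 2, without ITD-1 replicate 1. The calls of *Ccng2*, *Cdkn1b*, *Cat* and *Mxi1* were each lost on leaving out at least 1 array.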

How the data were processed

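RNA was hybridized to 9 Affymetrix MouseGene 2.0 ST arrays. The authors deposited log2 values, made by RMA normalization in Bioconductor using version 22 of the custom CDF, and the submitters' processing notes also name Partek. RMA pulls arrays toward a common distribution and reports relative signal, so counting depth does not apply. Fold changes on such arrays can be compressed, and the number of arrays limits the precision. Of 25428 probe sets, keyed by Entrez gene, 723 had no symbol and 1 repeated a symbol, which left 24704. The genome build of the probe sets is not given in the sources used here, and the authors' own comparisons between groups were not used.

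The log2 values were fitted with limma 3.58.1 in R 4.3.3 (lmFit and eBayes, a mean per group over all 9 arrays, two-sided, Benjamini-Hochberg adjustment). The labels name separate samples but neither animals nor batches, so p-values measure the spread between these samples. The paper's caption for the arrays gives 3 biologically independent experiments, without saying whether each came from a different animal. The fit was tested on simulated data before use. The 8 genes, the 7 lists and the markers were chosen with earlier results of these data known. From each list the 3 genes with the smallest unadjusted p for TGFβ1 against control were named, and further list genes because they were called, which was decided after their values were seen. For each gene called, the 3 genes with the highest Pearson r over the arrays were named. Residuals of same-numbered TGFβ1 and control arrays correlated at 0.138 to 0.305, over 0.1 for 3 of 3 numbers, so these numbers were taken to pair the arrays. Differently numbered arrays of these groups gave -0.217 to 0.102. The labels do not say that a number marks a shared culture, so the pairing is an assumption, and the main fit left it out. Same-numbered ITD-1 and control arrays gave -0.0707 to 0.146, and TGFβ1 and ITD-1 arrays -0.117 to 0.0869, so neither was taken as paired. Differently numbered arrays reached 0.161 for ITD-1 and control and 0.167 for TGFβ1 and ITD-1. Alternatives were median centering, cyclic loess, a filter at the median level, array weights, a trended and robust eBayes, a fit of 2 groups, the methods' analysis of variance and its 1.5-fold criterion at an unadjusted p under 0.05, the replicate number as a block, and dropping single arrays. Including the probe sets without a symbol, and the block in a fit of 2 groups, were chosen after seeing the data. Genes of the lists with no row here were not analysed.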

Additional observations from a re-analysis of the deposited data

How the results depend on the processing

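The 5 calls with TGFβ1 against control and the 5 against ITD-1 held under all 19 alternatives to the adjusted test, and 0 of 8 genes was called with ITD-1 against control under each. Leaving out each array in turn gave 5 to 5 called genes for TGFβ1 against control, 0 to 0 for ITD-1 against control and 5 to 5 for TGFβ1 against ITD-1. The largest adjusted p among these settings was 0.0219 for *Fbxo32* with TGFβ1 against control. With the replicate number as a block, which uses the pairing, the counts were 5, 0 and 5, and the block changed no call of the 8 genes. Among list genes with TGFβ1 against control it removed the calls of *Angptl4*, *Psmc1* and *Nr3c1* and added *Psmb7*, *Skp1* and *Ppargc1a*. The methods' criteria selected 3 of the 8 with TGFβ1 against control (1 higher and 2 lower), since *Fbxo32* (1.41-fold) and *Trim55* (1.49-fold) fell short of the 1.5-fold minimum by construction.

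Counts over all probe sets moved more. For TGFβ1 against control 1589 were called, against 825 by the methods' criteria and 1057 without control replicate 2 (1057 to 1726 over single arrays left out). For TGFβ1 against ITD-1 2514 were called, against 1316 by the methods' criteria and 1505 with the block and 2 groups. For ITD-1 against control 157 were called, against 18 by the adjusted analysis of variance, 63 with 2 groups in the fit, 102 with the replicate block, 0 in limma with the block and 2 groups (1807 at an unadjusted p under 0.05), and 37 to 147 with single arrays left out: 37, 39 and 54 without control replicates 1, 2 and 3, 98 without TGFβ1 replicate 1, and 77 and 90 without ITD-1 replicates 1 and 2. Of the list genes, *Ddit4* lost its call with TGFβ1 against control under the adjusted analysis of variance (0.0679). So did *Angptl4* (0.162), *Bnip3* (0.154) and *Nr3c1* (0.108). In limma, median centering removed the calls of *Bnip3* (adjusted p = 0.06335), *Nr3c1* (0.0611) and *Psmc1* (0.109) with TGFβ1 against control. The limma fit of 2 groups removed those of *Angptl4* (0.0724) and *Bnip3* (0.0647). The cause of these shifts was not tested. With 3 arrays a group, the 95% interval of *Fbxo30* for TGFβ1 against control ran from -0.26 to 0.24 on the log2 scale.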
